A study of Homo sapiens with 10 samples.

Results

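The 9 genes described here are antioxidant targets of the transcription factor NRF2, taken by symbol from the 40664 gene rows of the deposited table: NQO1, TXNRD1, TXN, SRXN1, GCLC, GCLM, SLC7A11, HMOX1 and OSGIN1. All 9 had a row, and all 9 passed the filter on low counts that left 13990 genes for testing. The choice used no measured value, but it was made with earlier results of these data known. The cells were hTERT RPE-1, a telomerase-immortalised line from human retinal pigment epithelium, and RNA depleted of ribosomal RNA was sequenced in 10 libraries. The study concerned how cells respond to matrix stiffness and a nuclear envelope complex that takes part in it, and siNemp1 is an siRNA treatment against NEMP1, which encodes an inner nuclear membrane protein. There were 3 libraries of siNemp1 cells on 120 kPa substrate, 3 of control cells on 120 kPa, 2 of siNemp1 cells on 10 kPa and 2 of control cells on 10 kPa. The labels do not say what the control cells received, and the genotype was otherwise that of 1 cell line in every group. Nothing in the labels says that replicates were separate cultures, so p-values measure how far these libraries lie apart, and that spread may be technical.

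NRF2, encoded by NFE2L2, is held at a low level in resting cells by KEAP1, an adaptor that brings it to the CUL3 and RBX1 ubiquitin ligase for degradation. Oxidants and electrophiles modify KEAP1, NRF2 then accumulates, pairs with small MAF proteins and binds antioxidant response elements, while BACH1 occupies such elements as a repressor. The retinal pigment epithelium works under strong light and high oxygen and relies on these enzymes for its glutathione, thioredoxin and quinone metabolism.

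The antioxidant response element core (letters TGACNNNGC) was searched on both strands in RefSeq promoter windows of GRCh38.p14, which run from 250 bases before a transcription start to 50 bases after it. Windows were at hand for 7 of the 9 genes, 8 windows in all, because TXNRD1 has a pair of starts. HMOX1 and SLC7A11 had no window in the table used. The core was found in 3 of the 8 windows, belonging to GCLM and TXNRD1, against 13.3% of all 35116 windows. The AP-1 motif (letters TGANTCA), a related element that can overlap it, was found in the OSGIN1 window alone among these genes, against 7.71% of all windows, and the matches of the motifs shared no bases. A match is a description of letters and says nothing of binding here. The stretches below run from 150 bases before the start to 10 after it. They are shown for the genes with a match and for NQO1, which had none in its window and was the single gene of the set called in any of the fits below. Capitals mark the antioxidant response element core, or the AP-1 motif in OSGIN1; a core read on the opposite strand appears as its reverse complement.

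NQO1, chr16:69726551-69726710, minus strand: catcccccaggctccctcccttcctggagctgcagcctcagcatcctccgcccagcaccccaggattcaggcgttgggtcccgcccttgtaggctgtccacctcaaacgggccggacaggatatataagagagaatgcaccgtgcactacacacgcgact
GCLM, chr1:93909421-93909580, minus strand: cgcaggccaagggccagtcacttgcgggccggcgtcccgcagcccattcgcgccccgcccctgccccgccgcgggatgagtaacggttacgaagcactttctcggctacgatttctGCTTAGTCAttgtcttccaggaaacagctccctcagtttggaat
TXNRD1, first start, chr12:104215629-104215788, plus strand: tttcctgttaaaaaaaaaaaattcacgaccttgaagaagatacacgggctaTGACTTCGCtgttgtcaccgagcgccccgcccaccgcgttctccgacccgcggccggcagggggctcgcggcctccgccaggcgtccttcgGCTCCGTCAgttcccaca
TXNRD1, second start, chr12:104286882-104287041, plus strand: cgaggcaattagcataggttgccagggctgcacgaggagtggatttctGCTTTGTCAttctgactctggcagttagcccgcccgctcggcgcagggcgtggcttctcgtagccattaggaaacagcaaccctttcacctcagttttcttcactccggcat
OSGIN1, chr16:83953090-83953249, plus strand: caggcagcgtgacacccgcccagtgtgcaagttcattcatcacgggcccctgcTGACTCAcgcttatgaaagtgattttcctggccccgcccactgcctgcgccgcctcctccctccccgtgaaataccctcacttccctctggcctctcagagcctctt

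In the GCLM window the core lay on the opposite strand at positions -34 to -26 from the start, where it reads TGACTAAGC. The first TXNRD1 window had TGACTTCGC on the gene's strand at -99 to -91 and TGACGGAGC on the opposite strand at -8 to 1. The second TXNRD1 window had TGACAAAGC on the opposite strand at -102 to -94.

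Library totals were 17.9 to 23.8 M estimated counts. NEMP1, the target of the siRNA, had 7.52, 6.70 and 4.11 CPM (counts per 1000000 after TMM scaling) in siNemp1 cells at 120 kPa, against 18.3, 14.0 and 14.1 CPM in control cells. At 10 kPa it had 8.22 and 7.63 CPM in siNemp1 cells, against 14.1 and 17.3 CPM in control cells, so the lowered target matched the labels in every library. Replicates at 120 kPa lay further apart than those at 10 kPa, with a chi-square per gene of 21.8 to 96.4 between replicates at 120 kPa, and of 6.67 in siNemp1 cells and 2.66 in control cells at 10 kPa. Of 10 retinal pigment epithelium markers, MITF, OTX2, BEST1 and PMEL reached at least 1 CPM in every library, whereas RPE65 and RLBP1 did not exceed 0.0978 CPM in any, TYR did not exceed 0.629 CPM and DCT was at 0. TYRP1 and SERPINF1 lay between, with highest values of 3.39 and 1.40 CPM. The epithelial keratins KRT8 and KRT18 were high, while CDH1 and EPCAM did not exceed 0.162 CPM and KRT19 0.421 CPM. CLDN1 and OCLN reached at least 1 CPM in every library, with highest values of 99.7 and 6.31 CPM. At 120 kPa the fibroblast marker list summed to 314 to 736 CPM in siNemp1 cells and 690 to 908 CPM in control cells. Most of that sum was THY1, at 628, 496 and 255 CPM in siNemp1 cells and 807, 759 and 605 CPM in control cells. COL1A1, PDGFRA, PDGFRB and DCN did not exceed 85.4 CPM in any library, COL1A2 and LUM did not exceed 0.506 CPM, and COL3A1 was at 0. The part of this list in any result was not tested. In bulk RNA, fewer cells expressing a gene and less RNA per cell cannot be told apart.

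The levels of the 9 genes spanned a wide range. Per kilobase of exon, TXN, the thioredoxin that reduces protein disulphides, was highest, with a level of 365 ± 62.4 CPM per kb (SD, n = 10 libraries), followed by NQO1, the NAD(P)H quinone reductase, at 323 ± 42.3. TXNRD1, the selenoenzyme that reduces thioredoxin, had 143 ± 14.8 CPM per kb, and HMOX1, the haem-degrading oxygenase, had 35.1 ± 7.76. OSGIN1, an oxidative stress induced growth inhibitor, had 8.45 ± 2.09 CPM per kb, SRXN1, the sulfiredoxin that repairs over-oxidised peroxiredoxins, had 6.25 ± 1.39, and SLC7A11, the cystine import subunit of system xc-, had 6.16 ± 0.505. GCLM and GCLC, the modifier and catalytic subunits of the enzyme that starts glutathione synthesis, were lowest, at 2.03 ± 0.359 and 0.779 ± 0.213 CPM per kb. Ranges over the libraries overlapped between TXN and NQO1, between OSGIN1 and SRXN1, and between SRXN1 and SLC7A11, and did not overlap between the other neighbours in this order. NQO1, TXNRD1 and TXN together made up 90.6% to 94.1% of the summed CPM of the set.

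**Figure D1:**
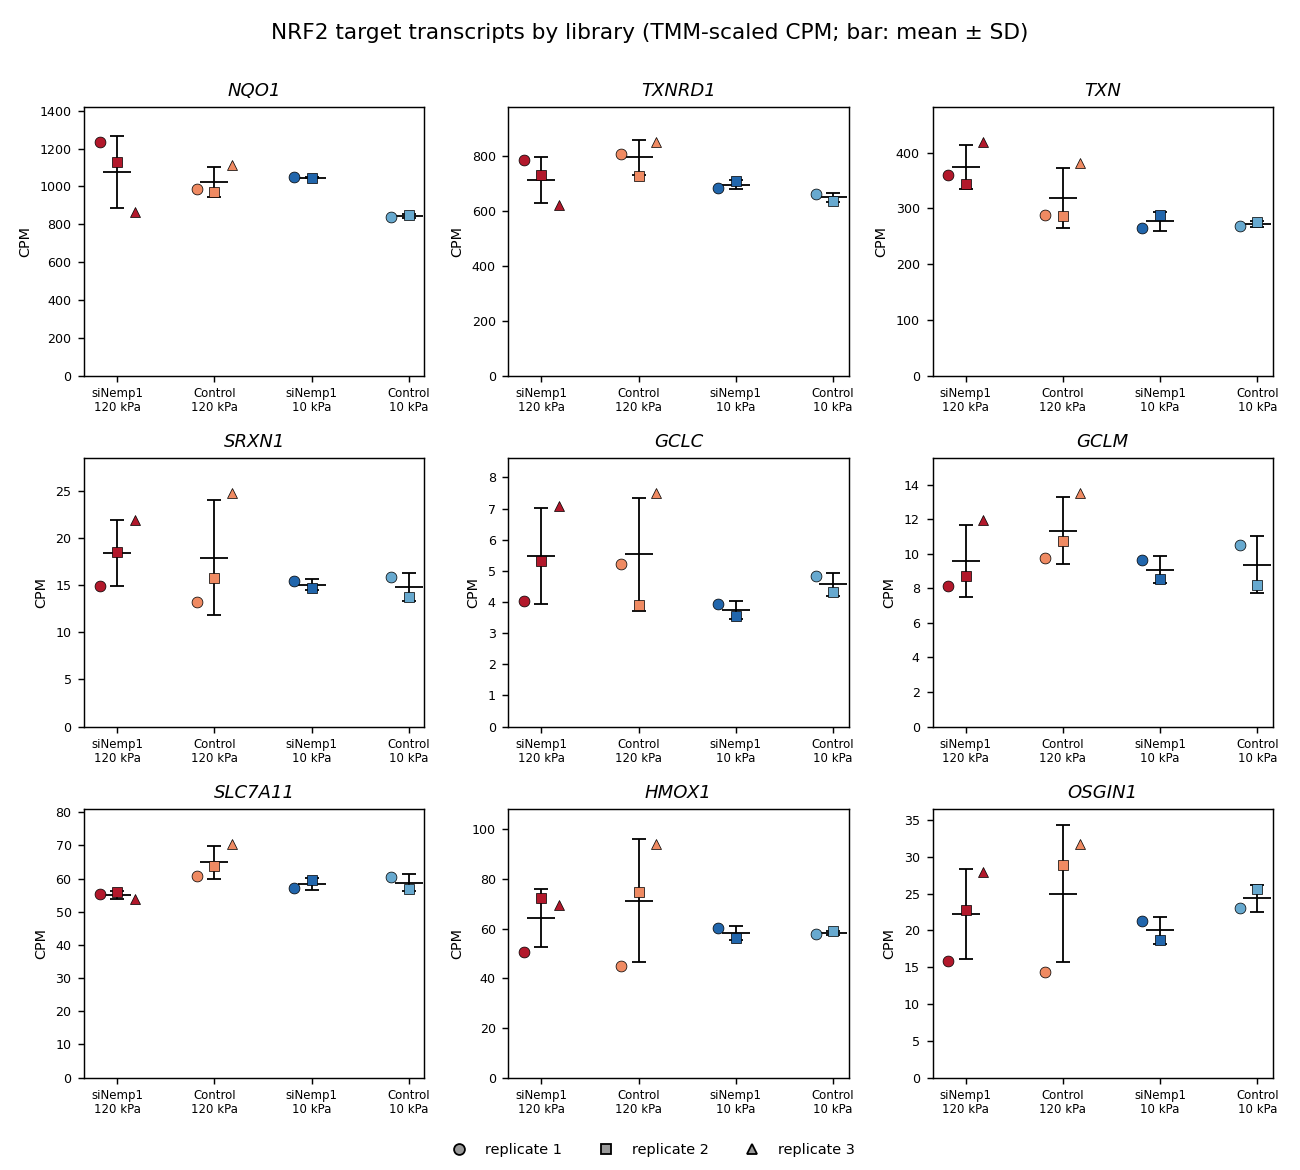
Each panel plots 1 gene, with TMM-scaled CPM on a linear axis from 0 and the 4 groups side by side; symbols are libraries by replicate number, and bars are the group mean ± SD (n = 3 at 120 kPa, n = 2 at 10 kPa). The spread between libraries at 120 kPa is wider than most distances between group means, as for HMOX1, which ran from 44.9 to 94.1 CPM within the control cells there.

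With siNemp1 at 120 kPa, none of the 9 genes was called higher or lower than in control cells by the quasi-likelihood test of edgeR, with Benjamini-Hochberg adjustment across 13990 genes and a threshold of 0.05. The background was the same, 0% of tested genes called, with 2413 genes at an unadjusted p under 0.05, 1 of the 9 among them. DESeq2 called 642 genes, 6.83% of those it gave an adjusted p, and 0 of the 8 members it gave one. Of the set, 3 log2 fold changes were positive, and the median was -0.15, beside 0.0064 for all tested genes. Without replicate 3 of the control cells at 120 kPa, 6 of 9 were positive and the median was 0.09. At 10 kPa none of the 9 was called either, against 0% of tested genes, with 850 genes at an unadjusted p under 0.05, 0 of the 9 among them. DESeq2 called 17 genes there, 0.111%, and again 0 of the 9. The median log2 fold change of the set there was -0.0041, beside -0.0018 for all tested genes, with 4 of 9 positive.

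**Figure D2:**
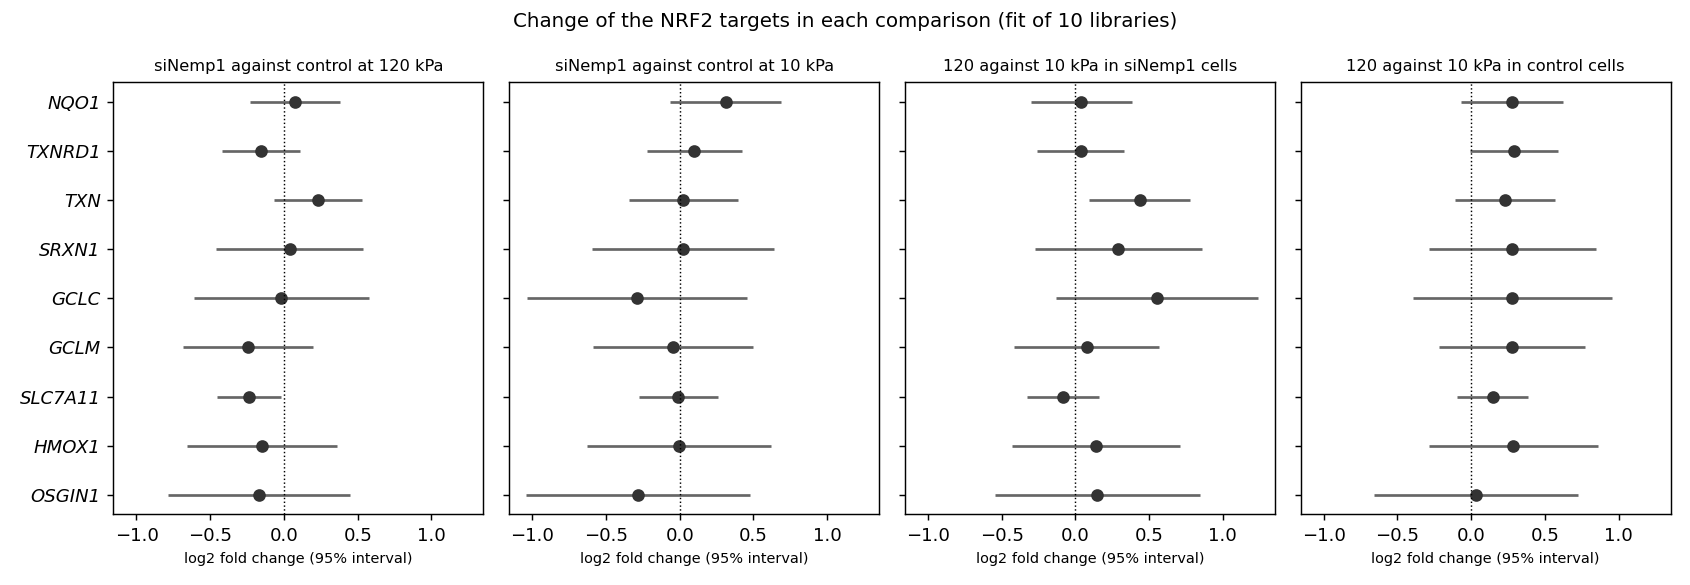
Each panel shows 1 comparison, with log2 fold change on the x axis and the 9 genes on the y axis; points are the fitted values and lines their 95% intervals from the fit of 10 libraries. Most intervals cross 0, and none of the genes passed the adjusted threshold, with TXN in siNemp1 cells (0.10 to 0.78, 120 against 10 kPa) and SLC7A11 at 120 kPa (-0.45 to -0.02, siNemp1 against control) lying wholly on 1 side.

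SLC7A11 was the single gene of the set whose groups did not overlap at 120 kPa. It had 55.4, 56.0 and 53.8 CPM in siNemp1 cells at 120 kPa, against 60.7, 63.7 and 70.4 CPM in control cells. The siNemp1 libraries were all lower, and in the fit the log2 fold change was -0.24 (SE 0.10, 95% interval -0.45 to -0.02), for which edgeR gave an adjusted p of 0.24. Of the 9 genes 1 was lower without overlap, beside 6.95% of tested genes, and 0 were higher without overlap, beside 10.9%. At 10 kPa SLC7A11 had 57.0 and 59.7 CPM in siNemp1 cells, against 60.5 and 56.9 CPM in control cells, and these groups overlapped (log2 fold change -0.01, 95% interval -0.27 to 0.26).

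Values of the thioredoxin genes at 120 kPa lay on both sides of 0. TXN had 359, 344 and 419 CPM in siNemp1 cells, against 288, 287 and 381 CPM in control cells. The groups overlapped through replicate 3 of the control cells, but siNemp1 was higher in each same-numbered pair, by 0.32, 0.26 and 0.14 on the log2 scale, and the fitted log2 fold change was 0.23 (SE 0.14, adjusted p 0.41, edgeR). For TXNRD1, siNemp1 cells had 785, 730.1 and 622 CPM, against 805, 725 and 849 CPM in control cells. Replicate 3 was the lowest of the siNemp1 libraries and the highest of the control libraries, and the log2 fold change was -0.16 (SE 0.12, adjusted p 0.54, edgeR). SRXN1 had 14.9, 18.5 and 21.9 CPM in siNemp1 cells, against 13.3, 15.8 and 24.8 CPM in control cells, and the groups overlapped (log2 fold change 0.04, 95% interval -0.46 to 0.54).

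NQO1, whose enzyme keeps quinones from redox cycling, lay on either side of the control cells at 120 kPa depending on the replicate. It had 1235, 1130.3 and 865 CPM in siNemp1 cells, against 984, 971 and 1113 CPM in control cells. Replicates 1 and 2 of the siNemp1 cells were above every control library and replicate 3 was below every one, and the log2 fold change was 0.07 (SE 0.14, adjusted p 0.83, edgeR). Without replicate 1 of the siNemp1 cells it was -0.05, and without their replicate 3 it was 0.18.

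At 10 kPa the replicates of NQO1 were close together and the groups apart. NQO1 had 1049 and 1046 CPM in siNemp1 cells, against 838 and 849.8 CPM in control cells. Both siNemp1 libraries were higher than both control libraries, and in the fit of all 10 libraries the log2 fold change was 0.31 (SE 0.17, 95% interval -0.06 to 0.69), and edgeR gave an adjusted p of 0.85. In an edgeR fit of the 4 libraries at 10 kPa alone, the log2 fold change was 0.30 (SE 0.05) with an adjusted p of 0.000535, and NQO1 was the single gene of the 9 called. That fit called 17.3% of 13345 tested genes, 8.1% as higher, so a share of 1 in 9 was near the background. It takes its spread from a pair of libraries a group, without the wider spread seen at 120 kPa.

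Among the other genes at 10 kPa, TXNRD1 had 683 and 707 CPM in siNemp1 cells, against 660.3 and 637 CPM in control cells, and did not overlap (log2 fold change 0.10, 95% interval -0.22 to 0.42). OSGIN1 had 21.3 and 18.7 CPM in siNemp1 cells, against 23.0 and 25.7 CPM in control cells. GCLC had 3.94 and 3.53 CPM in siNemp1 cells, against 4.83 and 4.31 CPM in control cells. Both were lower without overlap, with adjusted p-values of 0.94 for OSGIN1 and 0.93 for GCLC in edgeR's test. With 2 libraries a group such separation is frequent: 2 of the 9 genes were higher and 2 lower without overlap, beside 28.8% and 28.5% of tested genes.

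The glutathione synthesis genes and the haem oxygenase gene overlapped between siNemp1 and control cells at 120 kPa. GCLM had 8.11, 8.70 and 11.9 CPM in siNemp1 cells, against 9.78, 10.7 and 13.5 CPM in control cells, a log2 fold change of -0.24 (SE 0.20, adjusted p 0.57, edgeR). In same-numbered pairs GCLM was lower in siNemp1 cells each time, with log2 differences of -0.27, -0.30 and -0.18, and with the replicate block its adjusted p was 0.35 in edgeR. GCLC, with 70 to 178 estimated counts per library the sparsest of the set, had 4.03, 5.33 and 7.09 CPM in siNemp1 cells, against 5.21, 3.91 and 7.50 CPM in control cells. HMOX1 had 50.7, 72.2 and 69.6 CPM in siNemp1 cells, against 44.9, 74.8 and 94.1 CPM in control cells. For GCLC and HMOX1 the range of the control cells was wider than that of the siNemp1 cells, and the intervals of the log2 fold change were -0.61 to 0.58 and -0.66 to 0.36. OSGIN1 had 15.8, 22.7 and 28.0 CPM in siNemp1 cells, against 14.3, 28.8 and 31.7 CPM in control cells (log2 fold change -0.17, 95% interval -0.79 to 0.45). As folds, the 95% intervals at 120 kPa were 0.730 to 0.986 for SLC7A11, 0.654 to 1.49 for GCLC and 0.579 to 1.37 for OSGIN1.

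For stiffness in siNemp1 cells, 120 kPa against 10 kPa, none of the 9 genes was called by edgeR's test, against 0% of tested genes, with 1655 genes at an unadjusted p under 0.05, 1 of the 9 among them. DESeq2 called 111 genes, 2.3% of those it gave an adjusted p, and 0 of the 5 members it gave one. TXN had 359, 344 and 419 CPM at 120 kPa, against 265 and 288 CPM at 10 kPa. Every library at 120 kPa was higher, and the log2 fold change was 0.44 (SE 0.15, 95% interval 0.10 to 0.78), and edgeR gave an adjusted p of 0.33. GCLC was also higher without overlap, with 4.03, 5.33 and 7.09 CPM at 120 kPa, against 3.94 and 3.53 CPM at 10 kPa (log2 fold change 0.55, SE 0.31). SLC7A11, with 55.4, 56.0 and 53.8 CPM at 120 kPa, against 57.0 and 59.7 CPM at 10 kPa, was lower without overlap, by a log2 fold change of -0.08 (95% interval -0.32 to 0.16). These 2 higher and 1 lower of 9 stood beside 18.2% and 15.5% of tested genes that did not overlap in those directions.

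In control cells, 120 kPa against 10 kPa, none of the 9 genes was called by edgeR's test, beside 0.0143% of tested genes. At an unadjusted p under 0.05 there were 569 genes, 0 of the 9 among them, and DESeq2 called 12 genes, 0.051%, again 0 of the 9. All 9 log2 fold changes were positive, with a median of 0.28 beside -0.0055 for all tested genes. Without replicate 3 of the control cells at 120 kPa, 6 of 9 were positive and the median was 0.08. With a block for the replicate number, 8 of 9 were positive and the median was 0.11. That block takes a number to mark the same thing at both stiffnesses. Between stiffnesses the deviations of same-numbered libraries had a mean correlation of -0.046, and replicate 3 was present at 120 kPa alone. Groups did not overlap for 4 genes, all higher at 120 kPa (NQO1, TXNRD1, TXN and SLC7A11), beside 10.3% of tested genes higher without overlap. The same 4 stood apart without replicate 3 of the control cells at 120 kPa. Leaving out a library cannot make separate groups overlap, so this adds no support. NQO1 had 984, 971 and 1113 CPM at 120 kPa, against 838 and 849.8 CPM at 10 kPa, and a log2 fold change of 0.28 (SE 0.16, adjusted p 0.99, edgeR). TXNRD1 had 805, 725 and 849 CPM at 120 kPa, against 660.3 and 637 CPM at 10 kPa, and a log2 fold change of 0.29 (SE 0.13, adjusted p 0.99, edgeR). HMOX1 lay on both sides, with 44.9, 74.8 and 94.1 CPM at 120 kPa, against 57.8 and 58.9 CPM at 10 kPa.

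Averaged over both treatments, TXN had the lowest adjusted p of the set for stiffness, with a log2 fold change of 0.33 (SE 0.11, adjusted p 0.20, edgeR) for 120 kPa against 10 kPa. None of the 9 was called there, against 0% of tested genes and 2200 genes at an unadjusted p under 0.05, 1 of the 9 among them. DESeq2 called 491 genes there, 6.49% of those it gave an adjusted p, and 0 of the 7 members it gave one. Averaged over both stiffnesses, none of the 9 was called for siNemp1 against control, beside 1.29% of tested genes, and the largest value in size was -0.23 for OSGIN1 (SE 0.22, adjusted p 0.62, edgeR). The difference of the siNemp1 effect between stiffnesses was called for none of the 9, beside 0.00715% of tested genes. It ran from -0.25 in TXNRD1 to 0.27 in GCLC on the log2 scale, with adjusted p-values of 1.0 in edgeR's test.

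Values of several of the genes stood apart in single libraries. Replicate 3 of the control cells at 120 kPa held the highest CPM of 7 of the 9 genes, the exceptions being NQO1 and TXN, and all 9 were above their own median there, whereas 11.1% of tested genes were highest in that library. Its log2 CPM exceeded the mean over 10 libraries by 0.64 for GCLC, 0.59 for HMOX1, 0.58 for SRXN1 and 0.51 for OSGIN1. Replicate 1 of the same group held the lowest CPM of HMOX1, OSGIN1 and SRXN1, and 17.1% of tested genes were lowest in that library. The share of counts from the mitochondrial genome also differed along these libraries, at 1.06%, 0.826% and 0.709% in replicates 1, 2 and 3 of the siNemp1 cells and 1.73%, 1.40% and 0.913% in those of the control cells at 120 kPa, and its part in the result was not tested.

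**Figure D3:**
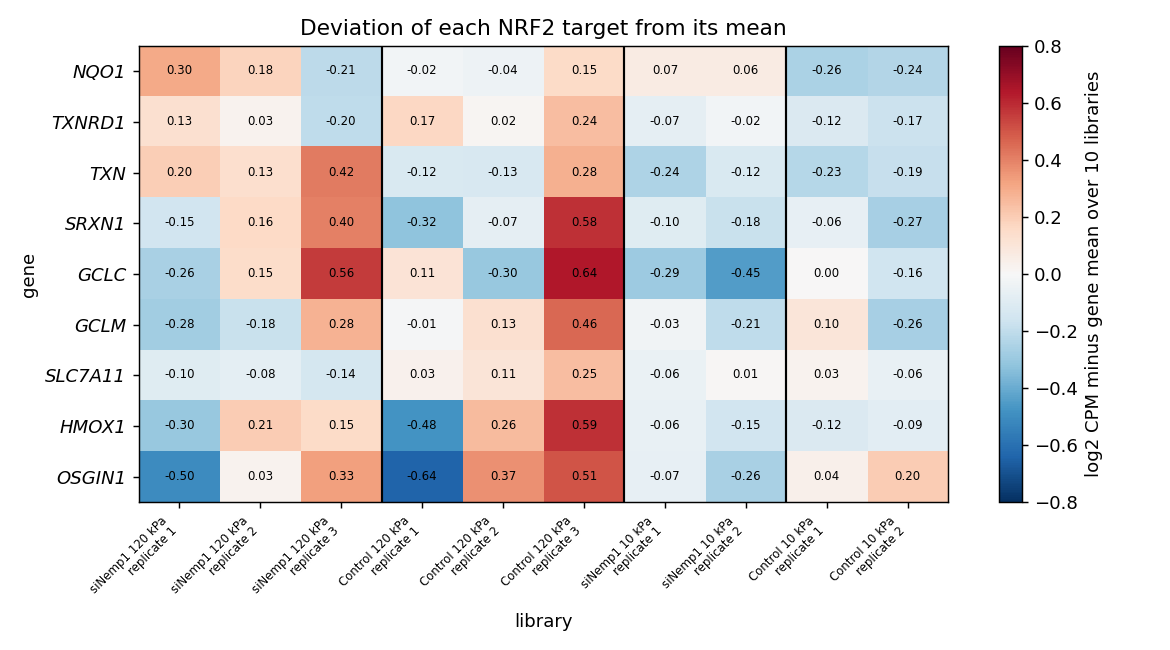
The colour and number in each cell give the log2 CPM of a gene (rows) in a library (columns) minus its mean over 10 libraries. Replicate 3 of the control cells at 120 kPa is positive in all 9 rows, while replicate 1 of that group reaches -0.64 for OSGIN1 and -0.48 for HMOX1.

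The members differed in how much they varied. Over 10 libraries the range of log2 CPM was 1.14 for OSGIN1, 1.07 for HMOX1, 1.06 for GCLC and 0.90 for SRXN1, and it was 0.73 for GCLM, 0.66 for TXN, 0.56 for NQO1, 0.45 for TXNRD1 and 0.39 for SLC7A11, beside a median of 0.88 for all tested genes. Each member was also set against tested genes in the same decile of mean log2 CPM. The share with a smaller range was 87.6% for OSGIN1, 87.1% for HMOX1, 63.5% for GCLC and 66.9% for SRXN1. For GCLM, TXN, NQO1, TXNRD1 and SLC7A11 it was 39.2%, 50.8%, 36.1%, 21.1% and 12.9%. Within groups, the median coefficient of variation of the 9 genes was 18.3% in siNemp1 and 17.1% in control cells at 120 kPa, beside 17.5% and 18.1% for all tested genes, and 4.60% and 4.37% at 10 kPa, beside 6.97% and 5.61%. By the root mean square difference of centred log2 CPM over the 10 libraries, the genes most like OSGIN1 were NOC2L (0.0668), VPS37B (0.0691) and TEAD4 (0.0750), beside a median of 0.422 over the genes compared. For HMOX1 they were BBLN (0.0676), FARSA (0.0757) and ARMC6 (0.0853), beside 0.365, and for GCLC they were SNHG1 (0.151), TGFB2-OT1 (0.153) and ASB1 (0.176), beside 0.405. No other gene of the set was among these.

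In the edgeR fit of 10 libraries without a block, no regulator of NRF2 was called in any of the 7 comparisons. That was 0 of 12 tested, from a list of 13. DESeq2 called RBX1 higher at 120 kPa than at 10 kPa in siNemp1 cells and averaged over both treatments. It called 2.26% and 5.97% of genes as higher there. For siNemp1 against control averaged over both stiffnesses, DESeq2 called BTRC lower, beside 4.33% of genes. The replicate block there called BTRC lower and RBX1 higher, beside 4.17% and 6.58% of genes. NFE2L2, which encodes NRF2, had 116, 114 and 102 CPM in siNemp1 cells at 120 kPa, against 108, 107 and 109.9 CPM in control cells, and at 10 kPa it had 121 and 117 CPM in siNemp1 cells, against 98.9 and 104 CPM in control cells. The groups overlapped at 120 kPa and not at 10 kPa, where 28.8% of tested genes were higher without overlap. The log2 fold change at 10 kPa was 0.22 (SE 0.12, adjusted p 0.84, edgeR). In the edgeR fit of the 4 libraries at 10 kPa alone it was 0.21 (adjusted p 0.016). That fit called 17.3% of tested genes, 8.1% as higher and 9.19% as lower. Of the 12 regulators it called 1 higher, NFE2L2, and 1 lower, BTRC. KEAP1 had 90.2, 130.2 and 117 CPM in siNemp1 cells at 120 kPa, against 69.7, 121 and 122 CPM in control cells, and SQSTM1, the autophagy receptor that competes for KEAP1, had 929, 1160.2 and 1225 CPM, against 744, 1108 and 1145 CPM. Both were lowest in replicate 1 of each treatment at 120 kPa. BACH1, the repressor of HMOX1, had 21.8, 20.0 and 22.0 CPM in siNemp1 cells at 120 kPa, against 20.0, 17.2 and 14.7 CPM in control cells, a log2 fold change of 0.29 (SE 0.14, adjusted p 0.30, edgeR). Of the small MAF genes, MAFG had 26.5 to 46.2 CPM over all libraries, and MAFF and MAFK had 1.21 to 5.69 and 1.13 to 3.33 CPM.

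**Figure D4:**
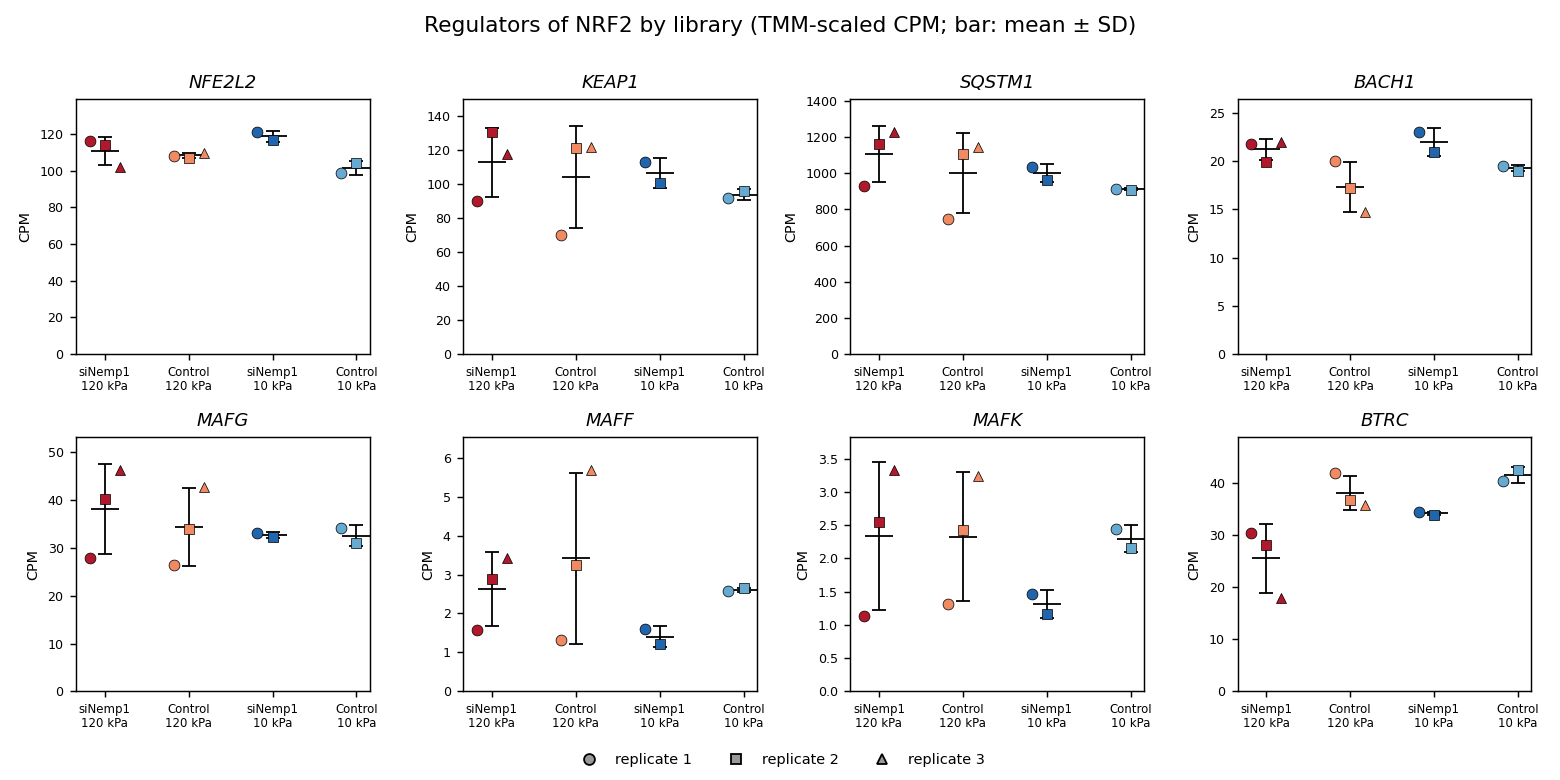
Each panel plots 1 regulator gene, with TMM-scaled CPM on a linear axis from 0 for the 4 groups; symbols are libraries by replicate number and bars are the group mean ± SD (n = 3 at 120 kPa, n = 2 at 10 kPa). BTRC, a subunit of a KEAP1-independent ligase for NRF2, lies lower in siNemp1 than in control cells at both stiffnesses, without overlap. Of tested genes, 6.95% were lower without overlap at 120 kPa and 28.5% at 10 kPa.

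At 120 kPa, replicates with the same number deviated together, and a fit with a block for that number called 8.75% of tested genes for siNemp1 against control, against 0% without it. None of the 9 genes was called there. Of the regulators, BTRC was lower, with a log2 fold change of -0.61 (SE 0.13, adjusted p 0.018), and RBX1, the RING subunit of the KEAP1 ligase, was higher, at 0.58 (SE 0.12, adjusted p 0.018), in edgeR with the block. In edgeR without the block the adjusted p-values of BTRC and RBX1 were 0.13 and 0.17, while DESeq2, also without a block, gave BTRC an adjusted p of 0.038. BTRC had 30.4, 28.1 and 17.9 CPM in siNemp1 cells, against 41.8, 36.7 and 35.7 CPM in control cells at 120 kPa. The members came closest with TXN (log2 fold change 0.24, SE 0.09, adjusted p 0.12) and SLC7A11 (-0.24, SE 0.10, adjusted p 0.15) in the blocked fit.

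Other NRF2 targets and neighbouring antioxidant genes were read from lists that were likewise chosen with earlier results known. Of 32 tested other NRF2 targets 1 was called for siNemp1 against control averaged over both stiffnesses, beside 1.29% of tested genes, and the median log2 fold change was 0.02, beside -0.0032 for all tested genes. That gene was GSTM3, a glutathione transferase, with 59.3, 51.8 and 54.6 CPM in siNemp1 cells at 120 kPa, against 37.5, 36.7 and 42.6 CPM in control cells, and an averaged log2 fold change of 0.45 (SE 0.08, adjusted p 0.048, edgeR). Of 28 tested glutathione, peroxidase and superoxide genes 1 was called in that comparison, PRDX3, the mitochondrial peroxiredoxin, and the median of the list was 0.17. PRDX3 had 379, 328 and 355 CPM in siNemp1 cells at 120 kPa, against 228, 196 and 264 CPM in control cells, and an averaged log2 fold change of 0.49 (SE 0.10, adjusted p 0.0499, edgeR). Within each stiffness both genes were higher in every siNemp1 library than in every control library. Of tested genes, 10.9% were higher without overlap at 120 kPa and 28.8% at 10 kPa. Both genes were picked by their call in these same libraries, so the separation adds no support. Both calls were near the threshold in the fit of 10 libraries. With the replicate block in edgeR the adjusted p-values were 0.011 for GSTM3 and 0.0093 for PRDX3. That fit called 10.8% of tested genes in this comparison, 6.58% as higher and 4.17% as lower. Of the 32 other NRF2 targets it called 2 higher and 1 lower, and of the 28 glutathione, peroxidase and superoxide genes 4 higher. DESeq2 gave GSTM3 and PRDX3 adjusted p-values of 0.00074 and 0.00059, and called 11.1% of the genes it gave one. Leaving out each library in turn gave adjusted p-values of 0.029 to 0.33 for GSTM3 and 0.027 to 0.34 for PRDX3 in edgeR, while the log2 fold changes stayed between 0.41 and 0.53. Both calls were lost without any 1 of the 4 libraries at 10 kPa, replicate 2 of the control cells at 120 kPa, or replicate 1 or 2 of the siNemp1 cells there.

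In the edgeR fit of 10 libraries without a block, 0 of 15 tested ATF4 targets and 0 of 8 heat shock genes were called in any comparison. In the 6 comparisons other than the averaged siNemp1 one, the NRF2 and glutathione lists held no call either in that fit. For 120 kPa against 10 kPa averaged over both treatments, DESeq2 called 5.97% of genes as higher and 0.515% as lower. It called 2 ATF4 targets (MTHFD2 and PSPH) and 1 heat shock gene (HSPA8), all higher. Of the other NRF2 targets it called 3, and of the glutathione, peroxidase and superoxide genes 4, again all higher. The ATF4 targets, which include genes of amino acid supply and share SLC7A11 as a known target of that factor, had a median log2 fold change of 1.01 for 120 kPa against 10 kPa in siNemp1 cells and 0.66 in control cells, beside 0.022 and -0.0055 for all tested genes. With the replicate block, which matches numbers across stiffnesses, these medians were 0.49 in siNemp1 cells and 0.20 in control cells. Each tested ATF4 target was higher in replicate 3 than in replicate 1 at 120 kPa in both treatments. ASNS had 26.5, 56.4 and 146 CPM in siNemp1 cells at 120 kPa, against 21.0 and 21.6 CPM at 10 kPa. In control cells ASNS had 20.1, 38.1 and 81.3 CPM at 120 kPa, against 18.1 and 17.8 CPM at 10 kPa. The medians therefore cover a wide spread between replicates at 120 kPa. SLC7A11 itself had a log2 fold change of -0.08 in siNemp1 cells and 0.15 in control cells. With the block at 120 kPa, siNemp1 against control, where 8.75% of tested genes were called and 6.24% as higher, calls were 1 of 32 other NRF2 targets (GSTM3), 3 of 28 glutathione, peroxidase and superoxide genes (PRDX3, GPX1 and GSTO1), 2 of 15 ATF4 targets (MTHFD2 and SHMT2) and 0 of 8 heat shock genes, each of the named genes higher. A blocked fit of the 6 libraries at 120 kPa alone, which called 9.39% of tested genes, called 3 other ATF4 targets (ASNS, PSAT1 and TRIB3) and neither MTHFD2 nor SHMT2. In the fit of the 4 libraries at 10 kPa alone, where 17.3% of tested genes were called, 8.1% as higher and 9.19% as lower, 8 of 31 other NRF2 targets were higher (IDH1 and BLVRB among them) and 3 lower (ABCC1 among them), and 10 of 27 glutathione, peroxidase and superoxide genes were higher and 0 lower, led by the peroxiredoxin gene PRDX4 at a log2 fold change of 0.49. Of the heat shock genes in that fit 2 of 8 were higher and 2 lower, and of the ATF4 targets 0 of 15 were higher and 2 lower.

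On GRCh38, by GENCODE 29, NQO1 lies at chr16:69706996-69726951, TXNRD1 at chr12:104215779-104350305, TXN at chr9:110243811-110256640, SRXN1 at chr20:646615-653370 and SLC7A11 at chr4:138164097-138242349. GCLC lies at chr6:53497341-53616970, GCLM at chr1:93885205-93909456, HMOX1 at chr22:35380361-35394214 and OSGIN1 at chr16:83948282-83966332, and all 9 are annotated as protein coding. The estimated counts sum over a whole gene. By whole gene spans, introns included, antisense genes overlap NQO1, GCLC, TXNRD1 and SLC7A11. Genes on the same strand overlap GCLC, TXNRD1, SRXN1 and OSGIN1. Whether exons are shared was not checked, and the sources used here do not give the strandedness. Reads from any shared exon could have been mixed between such genes. TXN has 7 pseudogenes by name, with which the counting could have shared reads, and its values are uncertain to that extent.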

How the data were processed

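Libraries were grouped by treatment and stiffness from their titles, which also gave replicate numbers. The table the authors deposited holds expected counts, estimated reads per gene before scaling between libraries, which were rounded to whole numbers here. Upstream steps used Trimmomatic 0.33, FastQC 0.11.9, Salmon (written as 1.80), edgeR and the GRCh38 build, per the submitters' processing notes. The sources used here state neither the transcript annotation nor the strandedness.

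Genes were filtered with filterByExpr over the 4 groups (13990 of 40664 kept), scaled with TMM and fitted in 1 robust quasi-likelihood model with a mean per group (edgeR 4.0.16, limma 3.58.1, R 4.3.3; 6 residual degrees of freedom). Tests were two-sided, with Benjamini-Hochberg adjustment across the tested genes in each of 7 comparisons, and called at an adjusted p under 0.05. CPM are TMM-scaled, and standard errors and 95% intervals come from the fit. Lengths are the exonic length of coding transcripts in GENCODE 29. The scripts were tested on simulated data.

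Alternatives were the replicate number as a block, fits of the compared groups alone, DESeq2 1.42.0, other scalings and filters, and leaving out each library. Same-numbered libraries of the 2 treatments deviated together at 120 kPa (correlations of 0.426, 0.157 and 0.359 for replicates 1, 2 and 3), which pairs them there from the data; the labels do not say what a number marks. At 10 kPa the correlation was 0.017, and between stiffnesses it averaged -0.046.

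The members, gene lists, comparisons and alternatives were chosen with earlier results of these data known. The text names the 9 members and NEMP1, the fixed regulators NFE2L2, KEAP1, BACH1, MAFG, MAFF, MAFK and SQSTM1, the called genes of smallest p of each other list (up to 4 a comparison), and the 3 genes most like each of the 3 most variable members with a mean of at least 5 CPM. Of 104 symbols in the other 5 lists, 101 had a row used here.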

Additional observations from a re-analysis of the deposited data

Results flagged for a closer look

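SLC7A11, the cystine transporter gene, lay on opposite sides with stiffness in the 2 treatments: all 3 siNemp1 libraries at 120 kPa (53.8 to 56.0 CPM) were below both siNemp1 libraries at 10 kPa (57.0 and 59.7 CPM), and all 3 control libraries at 120 kPa (60.7 to 70.4 CPM) were above both control libraries at 10 kPa (60.5 and 56.9 CPM). Of tested genes, 15.5% were lower at 120 kPa without overlap in siNemp1 cells and 10.3% were higher without overlap in control cells. The nearest libraries lay at 56.0 and 57.0 CPM in siNemp1 cells and at 60.7 and 60.5 CPM in control cells. Those gaps are small beside the counting error of this gene, 2.45% to 3.08% per library. The difference itself was tested: on the log2 scale it was -0.23 (SE 0.16, 95% interval -0.57 to 0.11), and edgeR gave an adjusted p of 1.0, so it did not pass. Leaving out each library in turn gave -0.28 to -0.17.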

How the results depend on the processing

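The number of the 9 genes called was 0 in each of the 7 comparisons under every alternative run, the replicate block included, with 1 exception: the fit of the 4 libraries at 10 kPa alone called 1, NQO1, for siNemp1 against control. That fit estimates its spread from fewer samples. The replicate block changed no call among the 9 genes and, for siNemp1 against control at 120 kPa, raised the calls over all genes to 1224, against 0 without it. DESeq2 gave no adjusted p to 1 to 4 of the 9 genes in 4 comparisons. The calls of GSTM3 and PRDX3 were also lost with the size factors of DESeq2 (adjusted p 0.053 and 0.055) and with upper-quartile scaling (0.051 and 0.055) in edgeR. Of 1045 fold changes of the 9 genes under alternatives, 63 changed sign, in 26 of 63 results, none of them called. Leaving out each library in turn left 0 of the 9 called in every comparison. With 2 or 3 libraries a group, precision was limited to the 95% intervals given above.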
